A study of Mus musculus with 12 samples.

Results

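The genes described here are 10 genes of the FBXL5-IRP axis and of cellular iron handling, measured in whole liver of FBXL5ΔDC and control mice with and without acetaminophen. They were chosen by symbol from the 55401 genes of the count table: Fbxl5, Ireb2, Aco1, Tfrc, Steap3, Slc11a2, Fth1, Ftl1, Ncoa4 and Slc40a1. Each symbol matched 1 row, and all 10 were among the 17585 genes that passed the filter on low counts.

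The 12 libraries came from livers of male mice aged 7 to 10 weeks, with 3 libraries in each of 4 groups. FBXL5ΔDC mice carried the genotype Cd11c-Cre/Fbxl5F/F, that is, floxed Fbxl5 alleles together with Cre under the promoter of Cd11c, the product of Itgax, a promoter used in dendritic cells and in some other myeloid cells. Control mice carried the same floxed alleles, Fbxl5F/F, without Cre. Livers were taken 6 h after an intraperitoneal injection of acetaminophen (APAP, a painkiller that injures the liver in overdose) or from mice without treatment, here called 0 h. The protocol named 2 doses, 300 and 500 mg/kg, and did not assign either to these livers. Injected mice had been fasted for 16 h and were fed again after the injection, and the sources used here do not say whether untreated mice were fasted. Drug and fasting therefore cannot be told apart in a comparison of 6 h with 0 h. Separate animals or litters were not stated for the replicates, so p-values measure only the spread between these samples.

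FBXL5 is the substrate-binding subunit of a ubiquitin ligase and holds iron itself. In iron-replete cells it is stable and marks iron regulatory protein IRP2, the product of Ireb2, for degradation, and in iron-poor cells FBXL5 is lost and IRP2 accumulates. IRP2 and its relative IRP1, which is encoded by Aco1 and doubles as the cytosolic aconitase, bind hairpins called iron-responsive elements (IREs) in mRNAs. Binding in a 5′ untranslated region (UTR) blocks translation of ferritin and ferroportin, whereas binding in the 3′ UTR of the transferrin receptor mRNA protects it from decay. The first kind of control acts on protein and the second on RNA. One isoform of Slc11a2 is also known to carry an IRE in its 3′ UTR.

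The IREs are shown because they are what links these members to the IRPs. A hairpin motif was searched on the transcript strand of GENCODE vM21 transcripts (GRCm38): a C, 5 bases, the loop CAGTGN, and 5 bases that pair with the first 5, G-T pairs allowed. A match in a UTR was found in 4 of the 10 members, against 0.726% of 21901 protein-coding genes. The share was 0.142% for 5′ UTRs and 0.584% for 3′ UTRs. Matches lay in the 5′ UTR of 3 members (Fth1, Ftl1 and Slc40a1) and in the 3′ UTR of 1, Tfrc, which held 4 of them. Each sequence is 28 bases, 5′ to 3′ on the transcript strand, with the loop in capitals:
Fth1, 5′ UTR, chr19:9982733-9982760, plus strand: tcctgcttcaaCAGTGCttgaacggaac
Ftl1, 5′ UTR, chr7:45459779-45459806, minus strand: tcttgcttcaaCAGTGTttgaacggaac
Slc40a1, 5′ UTR, chr1:45925465-45925492, minus strand: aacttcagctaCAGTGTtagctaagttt
Tfrc, 3′ UTR, chr16:32631220-32631247, plus strand: attatcggaagCAGTGCcttccataatt
Tfrc, 3′ UTR, chr16:32631599-32631626, plus strand: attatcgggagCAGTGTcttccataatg
Tfrc, 3′ UTR, chr16:32631664-32631691, plus strand: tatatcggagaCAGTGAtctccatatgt
Tfrc, 3′ UTR, chr16:32631711-32631738, plus strand: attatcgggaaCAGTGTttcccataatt
The ferritin pair was identical at 26 of 28 positions, whereas Fth1 and Slc40a1 were identical at 13. Within Tfrc, the pairs of hairpins shared 17 to 25 positions. The letters of the motif were not found in the UTRs of the other 6 members, and so the known Slc11a2 element was not matched by this search. These are matches of letters, and binding was not measured.

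Totals ran from 67173096 to 72512319 counts per library. The first principal component of all tested genes held 39.8% of the variance, and treated control replicate 3 stood apart from its group on it. That library lay at 86.8, near the treated FBXL5ΔDC libraries at 97.7, 107 and 104, while the other 2 treated controls were at −9.46 and −8.18. Untreated libraries lay between −67 and −57.5. Where the call of a member in a comparison with treated controls turned on that library, the value without it is also given. Levels are in CPM, a count divided by its library total after TMM scaling, and a gene was called changed at an adjusted p below 0.05 (edgeR quasi-likelihood test, Benjamini-Hochberg over 17585 genes).

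Fbxl5 (ENSMUSG00000039753.16, GRCm38 chromosome 5 from 43744615 to 43821638, minus strand), the gene floxed in every mouse, had 21.4, 21.8 and 12.5 CPM in treated FBXL5ΔDC livers and 13.3, 19.2 and 15.0 CPM in treated controls. Untreated FBXL5ΔDC livers had 10.3, 19.8 and 21.4 CPM, and untreated controls had 20.7, 22.0 and 17.6 CPM. The genotypes overlapped at both times, and 1 low library in each FBXL5ΔDC group set most of the spread. The FBXL5ΔDC minus control difference was 0.23 log2 at 6 h (95% interval −0.36 to 0.82) and −0.23 at 0 h (−0.82 to 0.36), and neither passed the test (edgeR adjusted p = 0.672 and 1).

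Deletion in Cd11c-expressing cells could not be read from these totals. Itgax itself had 10 to 38 counts in treated FBXL5ΔDC libraries, 9 to 47 in treated controls, and 0 to 27 in untreated libraries of both genotypes. The 10 dendritic cell markers summed to 10.4 to 11.7 CPM in treated FBXL5ΔDC livers, 6.68 to 11.8 in treated controls, 6.26 to 7.45 in untreated FBXL5ΔDC livers and 6.88 to 8.99 in untreated controls. Of these 10, 1 rose and 1 fell after acetaminophen in FBXL5ΔDC livers, where 15% of all tested genes rose and 15.1% fell. Single markers differed: Xcr1 had 0 counts in all 3 treated FBXL5ΔDC libraries and 0 to 49 in the others, while Cd24a rose (edgeR adjusted p = 0.00408). In control livers 1 of the 10 rose and 0 fell, against 6.36% and 4.2% of all genes. Mean Cd24a there was 1.94 CPM in treated and 0.572 CPM in untreated livers. Hepatocyte markers summed to 74900 to 152000 CPM over all libraries, so the level of each member is that of mixed liver tissue. In such bulk RNA, fewer cells of a type and less RNA per cell cannot be told apart. Exons of Fbxl5 overlap the antisense gene Bst1 over 1.01% of their length, and Bst1 had at most 35 counts.

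Per kilobase of annotated exon, ferritin mRNA was by far the most abundant of the 10 and Fbxl5 the least in every group. Untreated controls had 2870 ± 102 CPM per kb of Ftl1 and 412 ± 10.2 of Fth1 (mean ± SD, n = 3). Aco1 followed with 44.1 ± 1.37, then Slc40a1 with 13.8 ± 5.53, Ncoa4 with 11.3 ± 0.988 and Ireb2 with 8.58 ± 0.697 CPM per kb. At the low end stood Slc11a2 with 5.40 ± 0.905, Steap3 with 5.01 ± 0.675, Tfrc with 3.72 ± 0.365 and Fbxl5 with 2.06 ± 0.233. Slc40a1 and Ncoa4 lay within their spread of each other, and so did Slc11a2 and Steap3. In treated FBXL5ΔDC livers Tfrc, at 6.30 ± 1.17 CPM per kb, stood above Ireb2 at 4.27 ± 0.907, the reverse of their order in untreated livers. Treated controls had the same order, with 8.25 ± 3.0 for Tfrc and 7.04 ± 1.85 for Ireb2, within their spread.

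**Figure D1:**
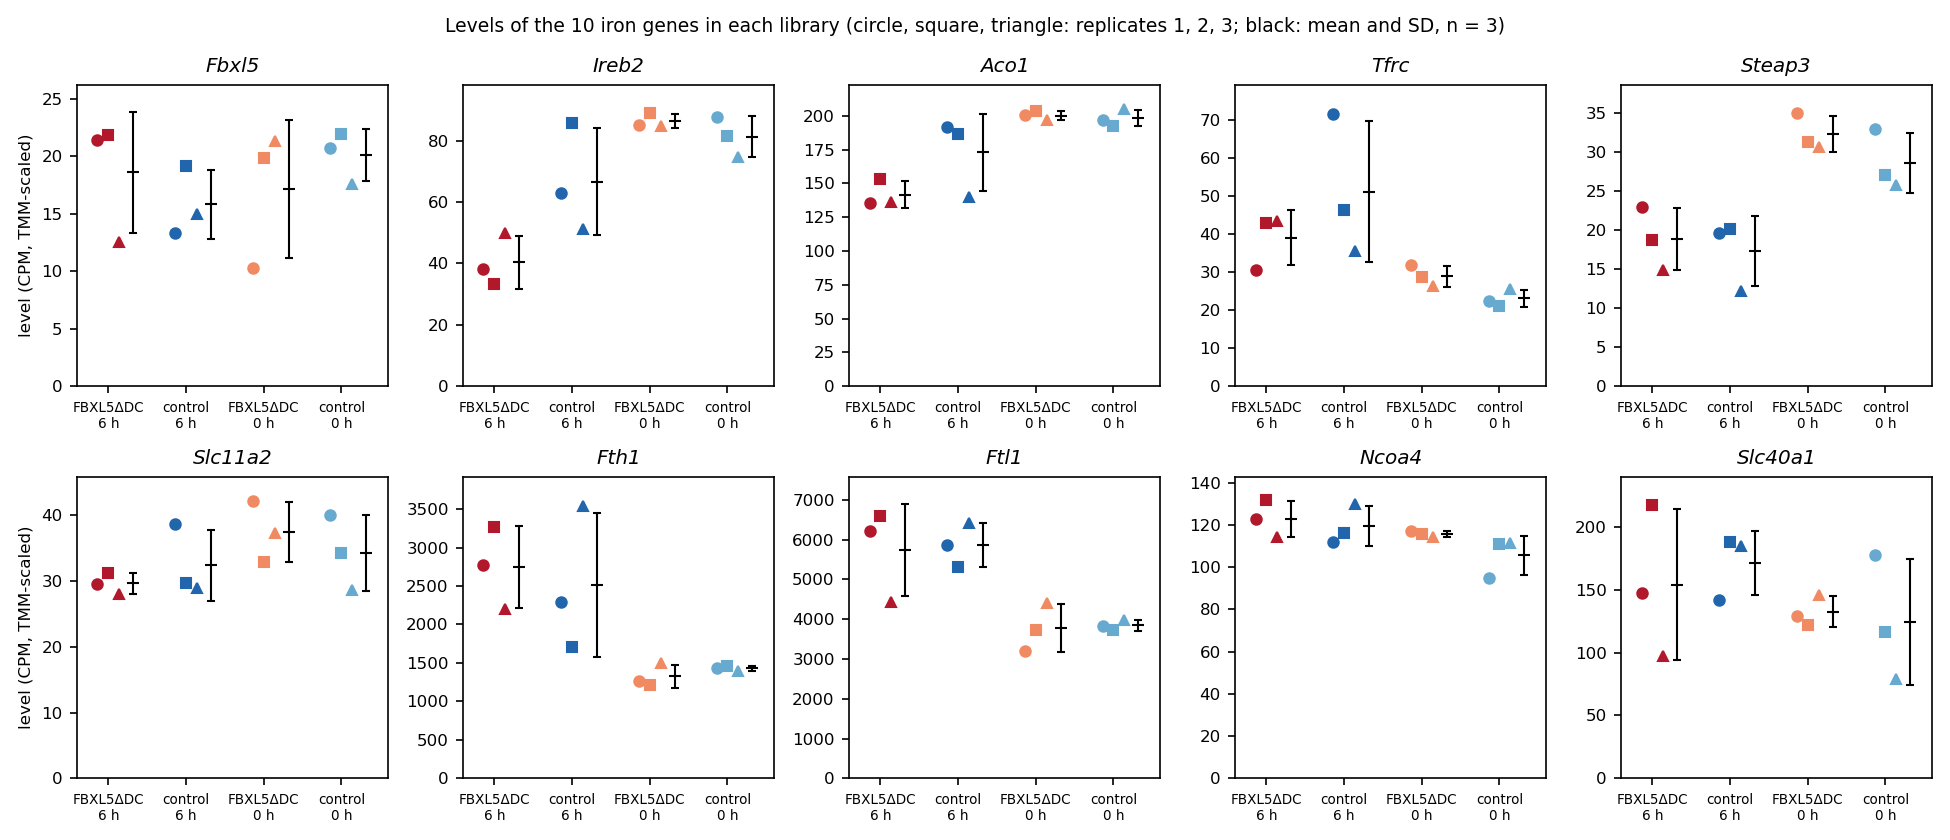
Level of each of the 10 genes (CPM, TMM-scaled) in every library, with treated groups left of untreated ones and FBXL5ΔDC left of control. Black marks give mean and SD (n = 3). Ireb2 and Aco1 are lowest in treated FBXL5ΔDC livers, Fth1 and Ftl1 are higher at 6 h than at 0 h, and treated control replicate 3 (dark blue triangle) lies near the FBXL5ΔDC livers for Ireb2 and Aco1.

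Both genes for iron regulatory proteins fell after acetaminophen in FBXL5ΔDC livers. Ireb2 (ENSMUSG00000032293.8, chromosome 9 from 54863789 to 54912530) had 38.1, 33.3 and 49.97 CPM in treated FBXL5ΔDC livers, against 85.3, 89.1 and 84.9 CPM in untreated FBXL5ΔDC livers. The groups did not overlap, and the untreated libraries lay within a few CPM of each other. The change was −1.10 log2, to 0.468 of the untreated level (SE 0.19, edgeR adjusted p = 0.00111), and it was called in 20 of 20 alternative settings.

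In control livers Ireb2 varied more and the change did not pass the test. Treated controls had 62.9, 85.8 and 51.4 CPM, against 87.9, 81.6 and 74.7 CPM in untreated controls. Replicate 2 was at the untreated level, replicate 1 between, and replicate 3 close to the highest treated FBXL5ΔDC liver. The control change was −0.29 log2 (95% interval −0.68 to 0.11, edgeR adjusted p = 0.378), and −0.13 without replicate 3.

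At 6 h Ireb2 was lower in FBXL5ΔDC than in control livers, with a log2 difference of −0.72, or 0.606 times the control level (SE 0.18, edgeR adjusted p = 0.0388), with all 3 FBXL5ΔDC libraries below all 3 controls. This call was fragile: it held in 7 of 20 alternatives, and without 1 library the change ran from −0.89 to −0.50 (adjusted p 0.00147 to 0.152). Of the 12 fits that leave out a library, those without treated FBXL5ΔDC replicate 3 and without treated control replicate 3 kept it. The difference between the responses of the genotypes, the interaction, was −0.81 (SE 0.26, edgeR adjusted p = 0.178) and was not called. Without treated control replicate 3 it was −0.97 (adjusted p = 0.00997).

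Aco1 (ENSMUSG00000028405.9, chromosome 4 from 40143081 to 40198338) moved the same way by less. It had 136, 153 and 136 CPM in treated FBXL5ΔDC livers, against 200.4, 203 and 197 CPM in untreated ones, without overlap. The change was −0.50 log2 (SE 0.12, edgeR adjusted p = 0.00933), and it too was called in 20 of 20 alternatives. Treated controls had 192, 187 and 140 CPM, against 197, 193 and 205 CPM in untreated controls, so that replicates 1 and 2 were just below the untreated range and replicate 3 was at the FBXL5ΔDC level. That change was −0.20 (95% interval −0.47 to 0.07, edgeR adjusted p = 0.373). The genotype difference at 6 h was −0.29 (SE 0.12, adjusted p = 0.186), and −0.42 without treated control replicate 3, where it was called (adjusted p = 0.00854).

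Ireb2 fell by more than Aco1 within the same libraries. The count of Ireb2 was 28.1%, 21.7% and 36.7% of that of Aco1 in treated FBXL5ΔDC livers, and 42.6%, 43.8% and 43.1% in untreated ones. No treated value reached the untreated values, a log2 difference of −0.615 (exact two-sided permutation p = 0.1, the smallest that 3 against 3 libraries allow). In controls the share was 32.8%, 45.9% and 36.6% at 6 h and 44.6%, 42.3% and 36.4% at 0 h, and these overlapped (difference −0.106, exact p = 0.7). Such ratios need no scaling between libraries, because both counts come from the same one. Marker sums also differed between these groups. In treated FBXL5ΔDC livers hepatocyte markers summed to 119000 to 152000 CPM, sinusoidal endothelial markers to 178 to 230 and stellate cell markers to 167 to 206. Untreated FBXL5ΔDC livers had 87000 to 97200, 98.7 to 127 and 51.3 to 93.9 CPM in the same order. Few genes carry the hepatocyte and stellate sums. Mean Alb was 98100 CPM at 6 h and 60400 at 0 h, Dcn 127 and 43.5, and Reln 51.7 and 13.6. Hnf4a had 760 and 799 CPM and Col1a1 4.04 and 4.42, while the other markers of these 2 lists had higher means at 6 h. By edgeR 2 of 8 hepatocyte, 4 of 5 endothelial, 2 of 5 stellate, 3 of 10 Kupffer cell and 4 of 6 tested monocyte and neutrophil markers rose and 0 fell, against the 15% and 15.1% of all genes. The part of these cells in the fall of Ireb2 and Aco1 was not tested.

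**Figure D2:**
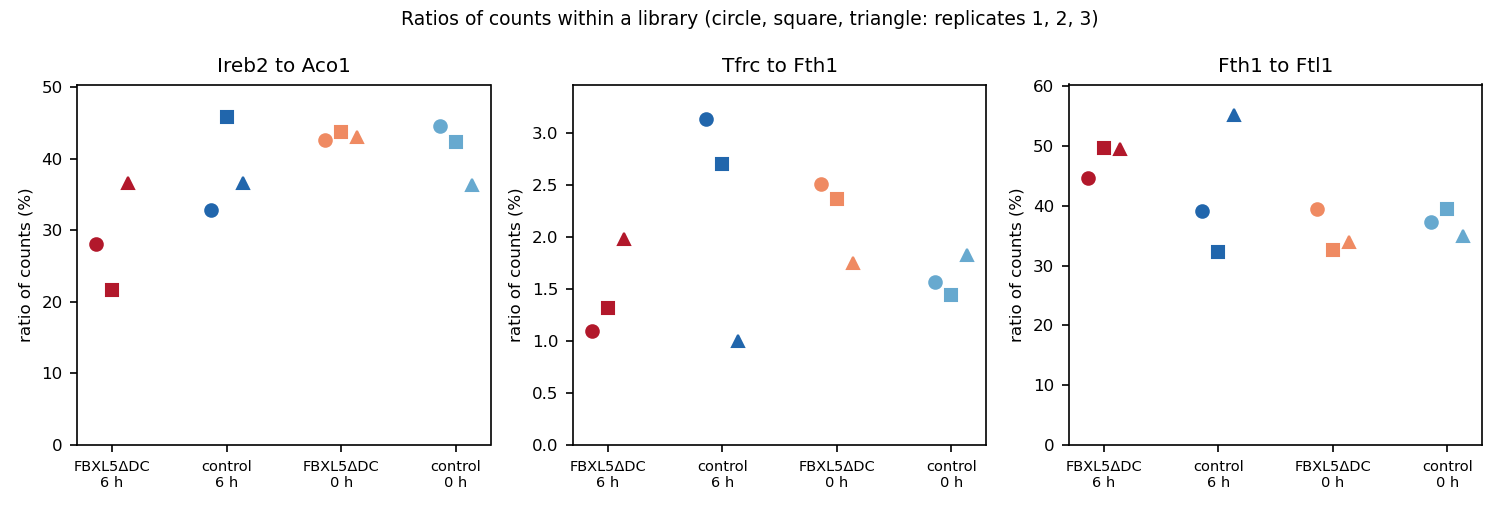
Ratio of the counts of 2 genes within each library, in percent, for Ireb2 to Aco1, Tfrc to Fth1 and Fth1 to Ftl1, treated groups on the left. The Ireb2 to Aco1 ratio of treated FBXL5ΔDC livers (21.7% to 36.7%) lies below that of untreated FBXL5ΔDC livers (42.6% to 43.8%), and their Fth1 to Ftl1 ratio lies above. Treated control replicate 3 has the lowest Tfrc to Fth1 and the highest Fth1 to Ftl1 ratio.

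Among the genes of iron uptake, Tfrc (ENSMUSG00000022797.16, chromosome 16 from 32608920 to 32632794), the receptor that takes up transferrin-bound iron, rose after acetaminophen in control livers. Treated controls had 71.5, 46.2 and 35.4 CPM, against 22.5, 21.1 and 25.5 CPM in untreated controls. The 3 treated libraries differed widely from each other but all lay above the untreated ones. The change was 1.15 log2 or 2.21-fold (SE 0.22, edgeR adjusted p = 0.00773). It was called in 19 of 20 alternatives and in 12 of 12 fits without 1 library (log2 0.82 to 1.35). The fit of the control groups alone missed the threshold (adjusted p = 0.0626).

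In FBXL5ΔDC livers the Tfrc change was smaller and not called. Treated libraries had 30.6, 42.9 and 43.4 CPM, against 31.7, 28.7 and 26.2 CPM in untreated ones, so that the lowest treated library lay within the untreated range. The log2 change was 0.43 (95% interval −0.05 to 0.92, edgeR adjusted p = 0.165). Untreated FBXL5ΔDC livers lay above untreated controls in all 3 libraries, by 0.32 (95% interval −0.16 to 0.81, adjusted p = 1), and at 6 h the difference was −0.39 (−0.87 to 0.09, adjusted p = 0.328). The interaction for Tfrc was −0.71 (SE 0.31, edgeR adjusted p = 0.321), so the unequal rises are not shown to differ. Without treated control replicate 3, the lowest of its group, the interaction was −0.92 (adjusted p = 0.0273) and the genotype difference at 6 h −0.60 (adjusted p = 0.0339).

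Steap3 (ENSMUSG00000026389.16, chromosome 1 from 120190757 to 120272705), the reductase that frees iron for transport out of the transferrin endosome, fell in both genotypes while Tfrc did not fall in either. Treated FBXL5ΔDC livers had 22.9, 18.7 and 14.9 CPM, against 35.0, 31.3 and 30.7 CPM in untreated ones. Treated controls had 19.6, 20.2 and 12.1 CPM, against 33.0, 27.1 and 25.8 CPM in untreated controls. Treated and untreated libraries did not overlap in either genotype. The changes were −0.78 log2 (SE 0.21, edgeR adjusted p = 0.0128) in FBXL5ΔDC and −0.72 (SE 0.21, edgeR adjusted p = 0.0416) in control livers. Without treated FBXL5ΔDC replicate 3 the FBXL5ΔDC change was −0.63 (adjusted p = 0.051), and without treated control replicate 3 the control change was −0.52 (adjusted p = 0.076). The FBXL5ΔDC call held in 19 of 20 alternatives. The control call held in 12 of 20, among them 5 of 12 fits without 1 library (highest adjusted p 0.146), and it was also lost without any 1 of the untreated libraries.

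Slc11a2 (ENSMUSG00000023030.16, chromosome 15 from 100387898 to 100425072) encodes DMT1, which carries ferrous iron across endosomal and apical membranes. It had 29.6, 31.3 and 28.0 CPM in treated FBXL5ΔDC livers, against 42.1, 32.9 and 37.3 CPM in untreated ones. These did not overlap, but the change of −0.34 log2 did not pass the test (95% interval −0.68 to 0.00, edgeR adjusted p = 0.128). In controls it was −0.08 (adjusted p = 0.827). Exons of Slc11a2 overlap the antisense gene Gm5475 over 6.33% of their length, and Gm5475 had at most 20 counts in a library.

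Both ferritin genes, which encode the subunits of the iron storage shell, rose in both genotypes. Fth1 (heavy chain, ENSMUSG00000024661.7, chromosome 19 from 9980598 to 9985098) had 2773, 3263 and 2195 CPM in treated FBXL5ΔDC livers, against 1265, 1214 and 1495 CPM in untreated ones. Treated controls had 2288, 1711 and 3545 CPM, against 1430.2, 1466 and 1395 CPM in untreated controls. There was no overlap in either genotype, and treated control replicate 3 had the highest level of all 12 libraries. The log2 change was 1.05 or 2.07-fold (SE 0.23, edgeR adjusted p = 0.00428) in FBXL5ΔDC livers, called in 20 of 20 alternatives. In control livers it was 0.81 (SE 0.23, edgeR adjusted p = 0.0383), called in 10 of 20, and 0.48 without replicate 3 (adjusted p = 0.109).

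Ftl1 (light chain, ENSMUSG00000050708.16, chromosome 7 from 45457944 to 45459884) had 6220.1, 6581 and 4431 CPM in treated FBXL5ΔDC livers, against 3210.3, 3727 and 4412 CPM in untreated ones. Its treated libraries all lay above the untreated ones, though the lowest treated library exceeded the highest untreated one by little. Treated controls had 5852, 5309 and 6420.1 CPM, against 3831, 3719.6 and 3990.3 CPM in untreated controls. The changes were 0.60 (SE 0.16, edgeR adjusted p = 0.015) in FBXL5ΔDC and 0.61 (SE 0.16, edgeR adjusted p = 0.0348) in control livers, both 1.52-fold. The FBXL5ΔDC call held in 16 of 20 alternatives (highest adjusted p 0.0738) and the control call in 10 of 20 (highest 0.123). Without treated control replicate 3 the control change was 0.54 (adjusted p = 0.0784). Neither ferritin gene differed detectably between genotypes at 6 h, by 0.13 for Fth1 (95% interval −0.36 to 0.61) and −0.03 for Ftl1 (−0.38 to 0.33).

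The heavy chain rose more than the light chain in FBXL5ΔDC livers. Fth1 counts were 44.6%, 49.6% and 49.5% of Ftl1 counts in treated FBXL5ΔDC livers and 39.4%, 32.6% and 33.9% in untreated ones, without overlap (log2 difference 0.444, exact two-sided permutation p = 0.1, the smallest possible). In controls the share was 39.1%, 32.2% and 55.2% at 6 h and 37.3%, 39.4% and 35.0% at 0 h, and only replicate 3 stood above the untreated range (difference 0.145, exact p = 0.8). Counts of the Ftl1 pseudogenes Ftl1-ps1, Ftl1-ps2 and Ftl2-ps came to 1.69% to 2.05% of those of Ftl1. How reads shared by such copies were split is not known. Antisense exons of Gm10252 cover 26.5% of the exons of Ftl1 but had at most 386 counts, or 0.0851% of the count of Ftl1.

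Setting the receptor against the store gave no difference beyond the spread. Tfrc counts were 1.10%, 1.32% and 1.98% of Fth1 counts in treated FBXL5ΔDC livers and 2.51%, 2.36% and 1.75% in untreated ones (exact two-sided permutation p = 0.2). Treated controls had 3.13%, 2.70% and 0.998%, against 1.57%, 1.44% and 1.83% in untreated controls (exact p = 0.5). Replicates 1 and 2 of the treated controls lay above every other library, and replicate 3 below every other.

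Ncoa4 (ENSMUSG00000056234.15, chromosome 14 from 32159865 to 32179855), the receptor that delivers ferritin to lysosomes for iron release, spanned the narrowest range of the 10 over the 12 libraries, relative to its level. It had 123, 132 and 114 CPM in treated FBXL5ΔDC livers, against 117, 116 and 114 CPM in untreated ones. Treated controls had 112, 116 and 130.1 CPM, against 94.97, 111 and 111 CPM in untreated controls. The 95% interval of its change was −0.15 to 0.32 log2 in FBXL5ΔDC livers and −0.06 to 0.41 in control livers (edgeR adjusted p = 0.614 and 0.359). The pseudogene Ncoa4-ps had 1338 to 1789 counts, or 17% to 22% of the count of Ncoa4, and how reads shared by both were split is not known.

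Slc40a1 (ENSMUSG00000025993.10, chromosome 1 from 45908068 to 45926523) encodes ferroportin, the iron exporter, and in liver is strongly expressed by Kupffer cells as well as hepatocytes. It had 147.5, 217 and 97.5 CPM in treated FBXL5ΔDC livers, against 129, 122 and 146 CPM in untreated ones. Treated controls had 142, 187.5 and 184.5 CPM, against 177.5, 116 and 79.0 CPM in untreated controls. All 4 groups overlapped, and the changes were 0.22 log2 (95% interval −0.43 to 0.87) in FBXL5ΔDC and 0.46 (−0.19 to 1.12) in control livers, with edgeR adjusted p = 0.636 and 0.386. The 10 Kupffer cell markers summed to 204 to 352 CPM in treated FBXL5ΔDC livers, 182 to 228 in treated controls, 166 to 215 in untreated FBXL5ΔDC livers and 142 to 169 in untreated controls, and their part in the level of Slc40a1 was not tested.

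In all, 2 of the 10 members rose and 3 fell after acetaminophen in FBXL5ΔDC livers, where 15% of all tested genes rose and 15.1% fell. In control livers 3 rose and 1 fell, against 6.36% and 4.2% of all genes. With 10 genes these counts say nothing particular about the list. The median change of the members was 0.0996 log2 in FBXL5ΔDC and 0.0477 in control livers, against 0.0167 and 0.0331 over all tested genes. Leaving out 1 library gave 4 to 5 called members in FBXL5ΔDC livers but 1 to 4 in control livers, where the fit of the 2 groups alone called 0.

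Between genotypes at 6 h, 0 members were higher in FBXL5ΔDC livers and 1, Ireb2, was lower, against 1.35% and 4.51% of all genes. Without treated control replicate 3 there were 3 lower, Ireb2, Aco1 and Tfrc, but that fit also called far more genes, 10.1% of 18464 higher and 12.9% lower. At 0 h the edgeR test called 0 members and 0% of all genes in either direction. Its unadjusted p was under 0.05 for 465 of the 17585 tested genes, fewer than would pass this threshold if no gene differed. DESeq2 called 8 genes higher, 6 lower and 0 members. Of the 10 members, 0 had an unadjusted p under 0.05 at 0 h. For the interaction edgeR and DESeq2 each called 0 members, against 0.0341% of genes higher and 0.256% lower by edgeR. Ireb2 and Tfrc, 2 of the 10, had an unadjusted p under 0.05 in it, as did 2543 of the 17585 tested genes. Both were called without treated control replicate 3, where 5.97% of all genes were called higher and 7.74% lower. The 2 responses and the 6 h difference share libraries, so these counts are not independent.

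**Figure D3:**
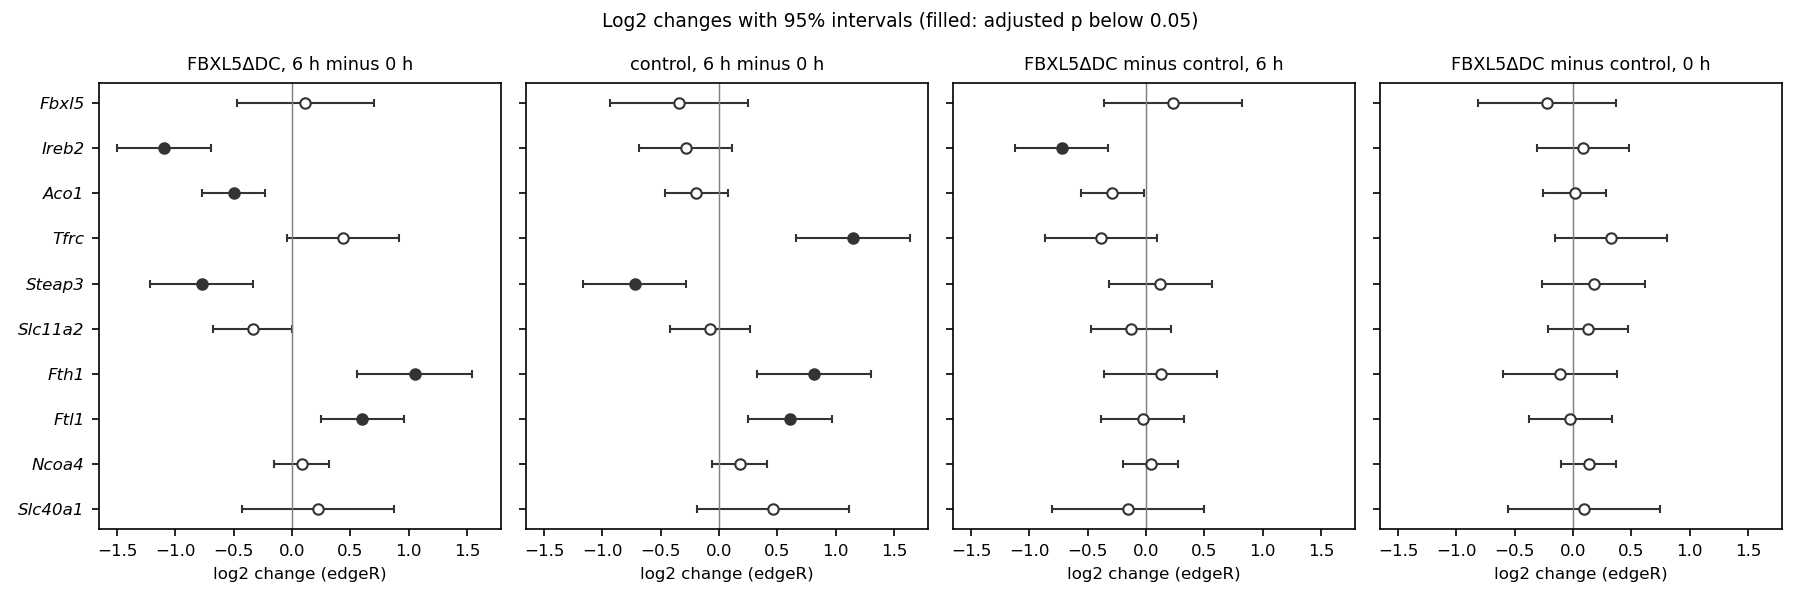
Log2 change of each member with its 95% interval in the 4 comparisons (edgeR), filled where the adjusted p was below 0.05. Ireb2 and Aco1 are filled in the FBXL5ΔDC response and Tfrc in the control response, the ferritin genes and Steap3 in both, Ireb2 alone at 6 h between genotypes, and no gene at 0 h.

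Levels were also set against the position of each library on the first principal component, to which these genes contribute with all others. Treated control replicate 3, which lay near the FBXL5ΔDC livers on the first principal component, had Ireb2 at 51.4, Aco1 at 140.3 and Fth1 at 3545 CPM. The 3 treated FBXL5ΔDC livers spanned 33.3 to 49.97, 136 to 153 and 2195 to 3263 CPM. Of the other treated controls, replicate 2 had Ireb2 at the untreated level, 85.8 CPM, and replicate 1 had Fth1 at 2288 CPM, above the lowest treated FBXL5ΔDC liver. For Tfrc the highest levels, 71.5 and 46.2 CPM, were in treated control replicates 1 and 2, which lay between the untreated and the other treated libraries. Treated FBXL5ΔDC livers had 30.6 to 43.4 CPM of Tfrc, so only replicate 1 stood well above them. These are 12 libraries in separate clusters, and no correlation was computed.

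**Figure D4:**
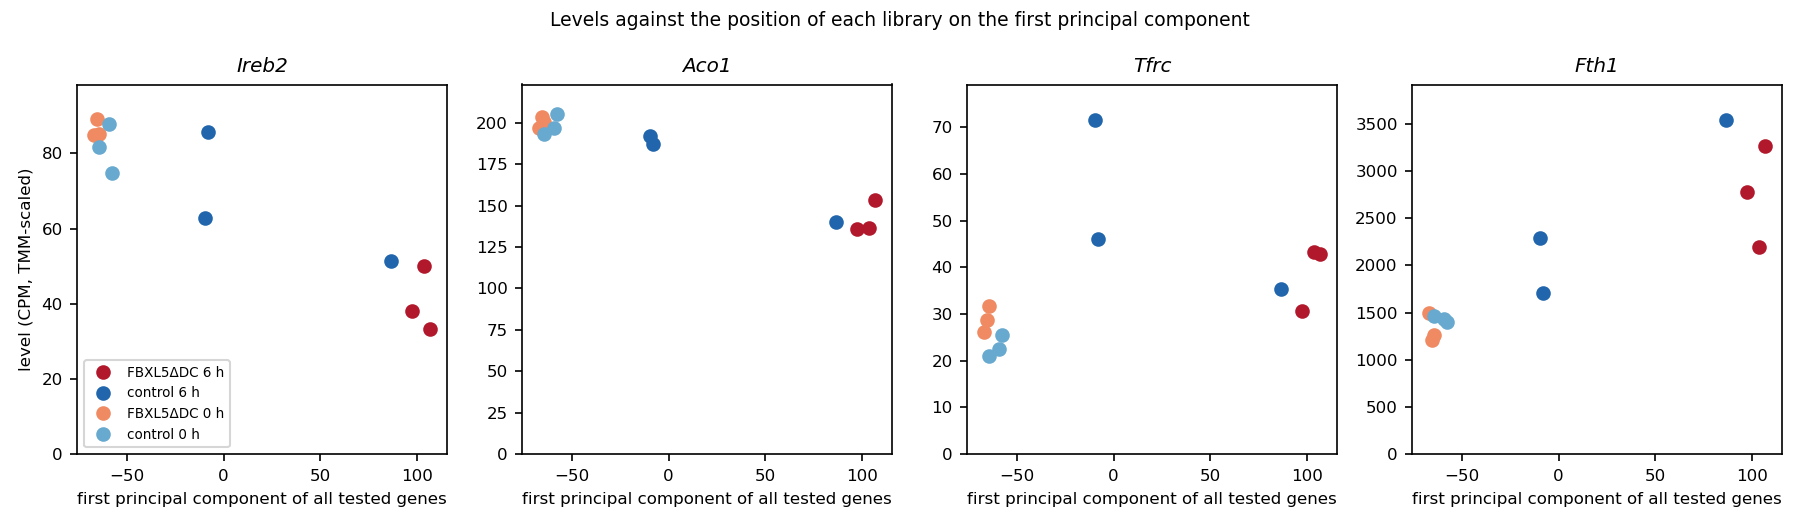
Levels (CPM) of Ireb2, Aco1, Tfrc and Fth1 against the position of each library on the first principal component of all tested genes. Treated control replicate 3, at 86.8, lies beside the treated FBXL5ΔDC livers, and the highest Tfrc levels belong to the treated controls at −9.46 and −8.18. The level at −8.18, 46.2 CPM, is close to the highest of the treated FBXL5ΔDC livers, 43.4 CPM.

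Red blood cells, monocytes and neutrophils, and Kupffer cells were also followed by their markers. Of 8 red blood cell markers, the sum was 307 to 611 CPM in treated FBXL5ΔDC livers, 446 to 462 in treated controls, 259 to 468 in untreated FBXL5ΔDC livers and 222 to 295 in untreated controls, nearly all of it haemoglobin mRNA. Among the defining markers, Gata1 had 0 counts in every library, Epb42 had at most 4 and Slc4a1 at most 53. Klf1 had counts in every library, with lower means at 6 h than at 0 h. These were 0.725 against 2.05 CPM in FBXL5ΔDC livers and 1.64 against 2.38 CPM in controls. By edgeR 1 of 6 tested red cell markers rose and 0 fell in controls, against 6.36% and 4.2% of all genes. In FBXL5ΔDC livers 0 rose and 0 fell, against 15% and 15.1%. The 8 monocyte and neutrophil markers summed to 1.48 to 7.32 CPM in treated FBXL5ΔDC livers and 3.31 to 4.80 in treated controls, against 0.507 to 2.10 in untreated FBXL5ΔDC livers and 0.996 to 1.10 in untreated controls, and Ly6g and Mpo were at 0 in 11 of 12 libraries each. In treated controls the red cell sums and the monocyte and neutrophil sums lay above those of untreated controls in every library, as Tfrc did. The Kupffer cell sums did as well, at 182 to 228 against 142 to 169 CPM. The part of any of these cells in the change of Tfrc was not tested.

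Tfrc and Fbxl5 served as anchors for a search for genes with the most similar course over the 12 libraries, among 9122 genes with a mean of at least 5 CPM. Likeness was the mean absolute difference of log2 CPM after each gene's own mean was taken off. Nearest to Tfrc were Lims1 (0.158), Inf2 (0.185), Atic (0.188), Anp32e (0.192) and Sec23b (0.194), where the median gene lay at 0.482. Nearest to Fbxl5 were Pebp1 (0.166), Clybl (0.175), Gstk1 (0.186), Mbl2 (0.187) and Cep63 (0.193), with the median gene at 0.391. None of the 10 is a gene of the iron lists.

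Counts of the next 6 lists of iron genes are to be read against the shares of all tested genes, 15% higher and 15.1% lower in FBXL5ΔDC livers and 6.36% and 4.2% in control livers. With 4 to 19 genes a list, they say nothing particular about any of them. Of 4 tested genes with a known IRE (Alas2, Epas1, Cdc14a and Cdc42bpa), 1 rose and 1 fell in FBXL5ΔDC livers (median −0.46 log2), and 0 rose and 1 fell in control livers (median 0.27). The hairpin search above matched Alas2 alone of these 4. Epas1, the hypoxia-inducible factor HIF-2α, had 254, 280.4 and 399 CPM in treated FBXL5ΔDC livers, against 145, 133 and 130.3 CPM in untreated ones, a change of 1.19 (SE 0.34, edgeR adjusted p = 0.0207). In treated controls it had 138, 128 and 360 CPM, against 120.1, 159 and 152 CPM in untreated controls, so that replicate 3 alone was high. Its genotype difference at 6 h was 0.57 (edgeR adjusted p = 0.347), and 1.22 without that library (adjusted p = 0.000302). The kinase gene Cdc42bpa fell in both genotypes, with changes of −0.81 (edgeR adjusted p = 0.00238) in FBXL5ΔDC and −0.60 (adjusted p = 0.0299) in control livers. Cdc14a, the highest in control livers at 0.61 (adjusted p = 0.517), was not called.

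Among 10 genes of iron uptake and reduction, 2 rose and 2 fell in FBXL5ΔDC livers (median 0.15 log2), and 1 rose and 3 fell in control livers (median −0.22). Slc39a14, which encodes the ZIP14 importer of non-transferrin-bound iron, had 614, 662 and 1093 CPM in treated FBXL5ΔDC livers, against 88.3, 118 and 115 CPM in untreated ones. The groups were far apart, a change of 2.88 log2 or 7.36-fold (SE 0.46, edgeR adjusted p = 0.00117). Treated controls had 170, 223 and 646.5 CPM, against 105, 136 and 135 CPM in untreated controls, and the change of 1.47 did not pass (adjusted p = 0.0551). Its interaction was 1.41 (SE 0.60, adjusted p = 0.317) and not called. Without treated control replicate 3 the control change was 0.65 (adjusted p = 0.113) and the interaction 2.23 (adjusted p = 0.00082).

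Steap4, another metalloreductase, rose in both genotypes, by 1.22 log2 (edgeR adjusted p = 0.00237) in FBXL5ΔDC and 1.26 (adjusted p = 0.00613) in control livers. Slc39a8, the ZIP8 importer, fell in both, to a log2 change of −0.62 (adjusted p = 0.00531) in FBXL5ΔDC and −0.68 (adjusted p = 0.00968) in control livers. Lrp1, an endocytic receptor that also clears haem bound to haemopexin, fell in FBXL5ΔDC livers by 1.04 (adjusted p = 0.00167) and measured −0.60 in controls (adjusted p = 0.0588). Steap2 fell in controls (−0.76, adjusted p = 0.0482), a call kept in 1 of 12 fits without 1 library. Steap1 was at 1.64 in controls without passing (adjusted p = 0.335), and at 0.02 without treated control replicate 3 (adjusted p = 0.998). That library had 77 counts of Steap1, and the other treated controls had 16 and 9. Cybrd1 fell in controls, with 0 counts in the 3 treated libraries and 47 in all at 0 h, at least 15.7-fold lower when 3 counts over the group are taken as the floor. That call held in 4 of 12 fits without 1 library, and the list median stayed at −0.22 with Cybrd1 at this bound. In FBXL5ΔDC livers, with 10 counts in all at 6 h, its change of −2.79 was not called. Trf, transferrin itself, was not called in any comparison.

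Storage genes and iron chaperones numbered 8 tested of 9, with 1 higher and 1 lower in FBXL5ΔDC livers (median −0.11 log2) and 1 higher in control livers (median 0.01). Scara5, a ferritin receptor, rose by 1.92 in FBXL5ΔDC livers (SE 0.57, edgeR adjusted p = 0.023) and measured 1.61 in controls (adjusted p = 0.0935). Pcbp4 fell by 0.73 in FBXL5ΔDC livers (adjusted p = 0.0222) and measured −0.42 in controls (adjusted p = 0.254). Pcbp1, the chaperone that hands iron to ferritin, had 163, 190 and 148 CPM in treated FBXL5ΔDC livers and 272, 224 and 216.5 CPM in treated controls. Untreated livers held 146 to 152 CPM in FBXL5ΔDC mice and 155 to 165.5 CPM in controls. It rose in controls (0.57, SE 0.12, adjusted p = 0.0121) and at 6 h was lower in FBXL5ΔDC livers (−0.51, SE 0.12, adjusted p = 0.0324), a call kept in 4 of 12 fits without 1 library. The interaction of Pcbp1 was −0.40 (adjusted p = 0.312).

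Of 5 tested export genes of 6, 1 rose and 2 fell in FBXL5ΔDC livers (median 0.20 log2) and 1 rose in control livers (median −0.02). Flvcr1, a haem exporter in erythroid cells and also a choline transporter, rose in both genotypes, by 1.08 (edgeR adjusted p = 0.00961) in FBXL5ΔDC and 1.11 (adjusted p = 0.0226) in control livers. Its relative Flvcr2 had 3.24, 1.51 and 3.34 CPM in treated FBXL5ΔDC livers, against 12.1, 11.9 and 10.9 CPM in untreated ones (−2.11, adjusted p = 0.00206). In treated controls it had 6.80, 7.94 and 2.29 CPM, against 9.51, 10.4 and 11.3 CPM in untreated controls (−0.87, adjusted p = 0.178), and replicate 3 again lay with the FBXL5ΔDC livers. Abcg2, a transporter that carries haem and porphyrins among other substrates, fell in FBXL5ΔDC livers (−0.56, adjusted p = 0.00731).

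FBXL5 works in a ligase with Skp1, Cul1 and Rbx1, and IRP2 turnover and IRP1 maturation also involve the cytosolic iron-sulphur assembly proteins. Of these 12 genes, 1 rose and 2 fell in FBXL5ΔDC livers (median −0.07 log2) and edgeR called 0 in control livers (median 0.09). In control livers 2 of the 12 had an unadjusted p under 0.05, as did 4346 of all 17585 tested genes. In FBXL5ΔDC livers Ciao1 fell by 0.69 (edgeR adjusted p = 0.00798), Ciao3 fell by 0.60 (adjusted p = 0.0216), and Ciapin1 rose by 0.41 (adjusted p = 0.0421), the last in 4 of 12 fits without 1 library. All 3 belong to the assembly machinery, not to the ligase. In controls Ciao1 measured −0.45 (adjusted p = 0.11) and Ndor1 0.37 (adjusted p = 0.61).

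Of 19 genes of mitochondrial iron import and iron-sulphur assembly, 4 rose and 1 fell in FBXL5ΔDC livers (median 0.04 log2) and 2 rose in control livers (median −0.11). Slc25a37 (mitoferrin 1, an importer of iron into mitochondria) rose by 0.62 (edgeR adjusted p = 0.0303) in FBXL5ΔDC and 0.86 (adjusted p = 0.0168) in control livers. The chaperone gene Hspa9 rose by 0.46 (adjusted p = 0.00571) in FBXL5ΔDC and 0.41 (adjusted p = 0.0263) in control livers. In FBXL5ΔDC livers Fdx1 rose by 0.52 (adjusted p = 0.0406), Glrx5 rose by 0.39 (adjusted p = 0.0458) and Iba57 fell by 0.71 (adjusted p = 0.00293). Of the FBXL5ΔDC calls, those of Fdx1 and Glrx5 held in 5 and 3 of 12 fits without 1 library. Hscb was lowest in both genotypes without passing, at −0.76 (adjusted p = 0.304) in FBXL5ΔDC and −0.72 (adjusted p = 0.446) in control livers. Slc25a28 (mitoferrin 2) had 24.2, 25.0 and 27.7 CPM in treated FBXL5ΔDC livers and 18.8, 13.6 and 18.4 CPM in treated controls, without overlap. It was higher in FBXL5ΔDC livers at 6 h (0.60, SE 0.15, adjusted p = 0.0364), a call kept in 1 of 12 fits without 1 library. Across these 6 lists edgeR called 0 of 58 genes between genotypes at 0 h and 0 in the interaction. Unadjusted p was under 0.05 for 1 and 5 of the 58, against 465 and 2543 of all 17585 tested genes. Without treated control replicate 3 the same 58 genes gave 5 higher and 5 lower between genotypes at 6 h. That fit called 10.1% of all genes higher and 12.9% lower there. In the interaction it gave 2 higher and 2 lower, where 5.97% of all genes were higher and 7.74% lower. With 58 genes these counts say nothing particular about the lists. Genes described here beyond the highest and lowest of each list were named because they passed the test, after their values were seen. Trf was named without passing.

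**Figure D5:**
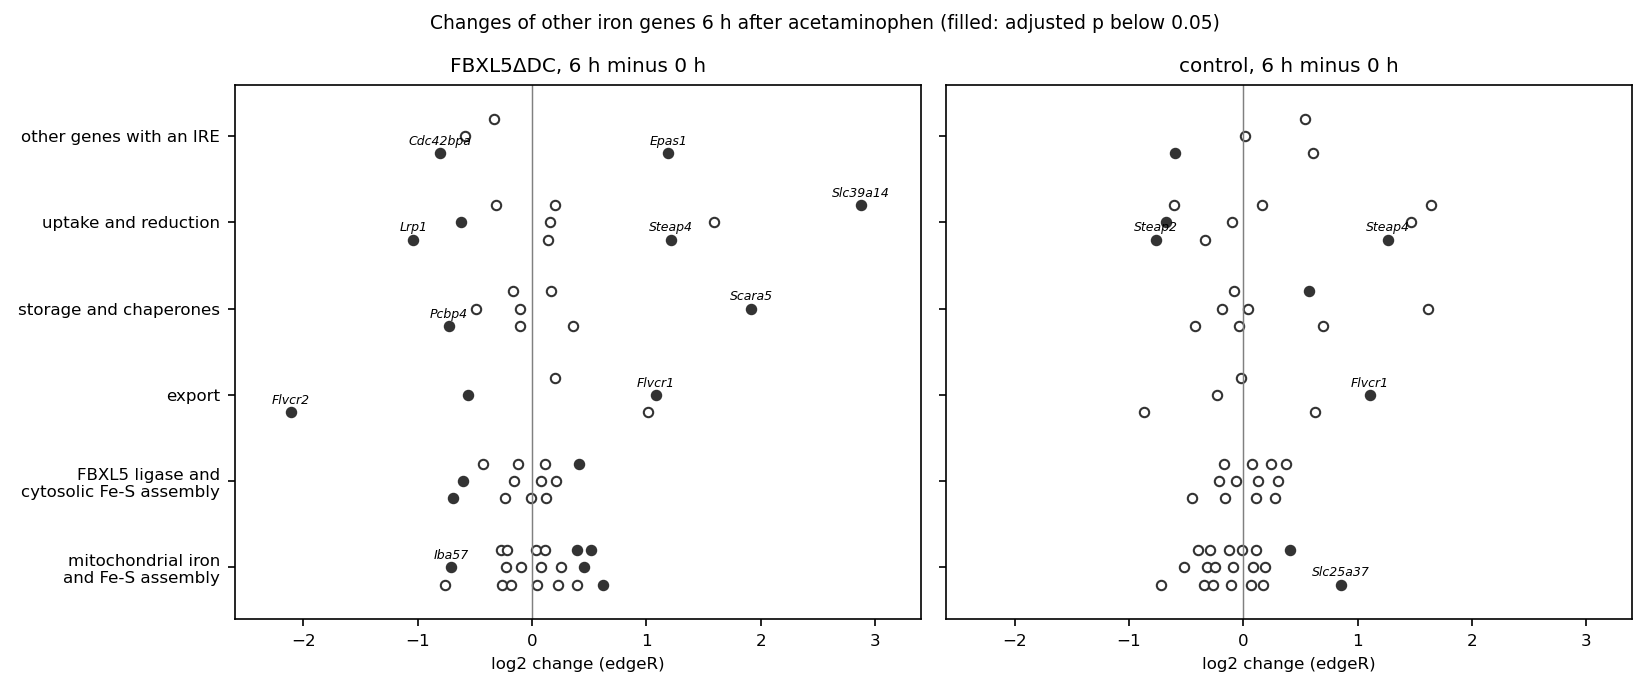
Log2 change 6 h after acetaminophen of the tested genes of 6 further iron lists in FBXL5ΔDC (left) and control (right) livers, 1 point a gene, filled where the edgeR adjusted p was below 0.05. Called genes past 0.7 log2 are named, and Cybrd1 is left out because treated controls had 0 counts. Slc39a14 at 2.88 and Flvcr2 at −2.11 mark the ends in FBXL5ΔDC livers.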

How the data were processed

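Whole-liver RNA was sequenced in 12 libraries of 4 groups. The submitters' processing notes name Trim Galore 0.6.6, HISAT2 2.2.1 and the mouse build mm10. The authors deposited estimated counts per gene without normalisation. The sources used here give neither the counting program nor its strand setting. Values were whole, but 26.5% to 28.5% of low ones were multiples of 4. They were therefore handled as estimated counts, not as the raw counts first assumed, and rounding changed nothing. Whether they are estimates is not known. Genes were filtered with filterByExpr, scaled by TMM, and fitted in 1 edgeR 4.0.16 quasi-likelihood model of 4 groups (R 4.3.3, 8 residual degrees of freedom). The code was tried on simulated data with larger changes than those of the members and less dispersion than the 0.153 of these data. That trial therefore cannot tell how reliably changes of the size seen here are called. Alternatives were other scaling factors and filters, non-robust dispersion, DESeq2 1.42.0, a replicate block, the 2 groups alone and leaving out each library. The members and lists were chosen with earlier results of these data known, and 2 listed genes are not reported here. The 10 members were always named, and of each list the highest and lowest gene per response. Ratios were compared by exact permutation.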

Additional observations from a re-analysis of the deposited data

How the results depend on the processing

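No pairing by replicate number was seen: over 18 same-numbered pairs the correlation of deviations was −0.0614 to 0.0441. This check cannot tell whether same-numbered samples shared a litter or were processed together. With the replicate block, 2 members were called in the control response (4 without it) and 0 between genotypes at 6 h (1 without it). Fits of the 2 groups alone called 0 members in both, and upper quartile factors called 3 and 0. Leaving out 1 library gave 4 to 5 members in the FBXL5ΔDC response, 1 to 4 in the control response, 0 to 3 between genotypes at 6 h, and 0 to 2 in the interaction. The causes were not tested.

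Counts of Itgax, Xcr1 and Cybrd1, at most 49 in a library, limit what can be read from them. Uncalled values changed sign. The Ftl1 interaction was −0.005, but 0.019 with DESeq2 size factors, 0.041 with upper quartile factors, 0.014 with the stricter filter, 0.001 with the replicate block and 0.015 in DESeq2. The Ftl1 difference at 6 h was 0.009 with upper quartile factors. Leaving out 1 library, log2 values ran as follows. FBXL5ΔDC minus control at 0 h: Aco1 −0.007 to 0.04, Fbxl5 −0.414 to 0.036, Ftl1 −0.149 to 0.081, Slc40a1 −0.15 to 0.441. At 6 h: Fth1 −0.088 to 0.455, Ftl1 −0.123 to 0.138, Ncoa4 −0.006 to 0.105, Slc11a2 −0.207 to 0.014, Slc40a1 −0.468 to 0.099, Steap3 −0.079 to 0.283. Interaction: Ftl1 −0.11 to 0.161, Slc40a1 −0.595 to 0.007, Steap3 −0.254 to 0.107. FBXL5ΔDC response: Fbxl5 −0.15 to 0.333, Slc40a1 −0.107 to 0.46. Control response: Slc11a2 −0.227 to 0.046. The Fth1 to Ftl1 ratio of the control response ran from −0.067 to 0.321, and the Ireb2 to Aco1 ratio from −0.242 to 0.002 there and from −0.009 to 0.137 between genotypes at 0 h.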
